A study of Homo sapiens with 6 samples.

Results

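The genes described here are 10 members of the Krüppel-like factor (KLF) family, KLF2, KLF3, KLF4, KLF5, KLF6, KLF7, KLF9, KLF10, KLF11 and KLF13, taken by gene symbol from a table of 60651 gene rows. Each symbol matched 1 row (ENSG00000127528.6, ENSG00000109787.13, ENSG00000136826.15, ENSG00000102554.14, ENSG00000067082.15, ENSG00000118263.15, ENSG00000119138.4, ENSG00000155090.15, ENSG00000172059.11 and ENSG00000169926.11, in that order), and all 10 rows passed the filter on low counts that left 15589 genes for testing. RNA was sequenced from MDA-MB-231, an established human triple-negative breast cancer line labelled wild type, after 24 h in 3 conditions with 2 libraries each. The control libraries received DMSO. The treated ones received AF-EAE, the ethyl acetate extract of Antenoron filiforme, a medicinal herb, at 75 µg/ml or at 150 µg/ml. The extract is a mixture of unnamed constituents. The series is about proliferation and the SKP2/P21 axis, and the comparison made here asks how the KLF genes stood at each dose.

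KLF proteins are transcription factors that bind GC boxes and CACCC boxes in DNA through zinc fingers at their carboxyl end. Their amino-terminal parts differ and sort the family into classes. KLF3 recruits the CtBP corepressors. KLF2, KLF4, KLF5, KLF6 and KLF7 carry activating domains. KLF9, KLF10, KLF11 and KLF13 bind the Sin3A corepressor. Family members compete with each other and with the related SP factors for the same sites, and several KLF genes are themselves switched on quickly by growth factors, hormones or stress. In epithelia KLF4 is known for growth arrest and differentiation and KLF5 for proliferation. Their roles in this cancer line were not tested.

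The 6 libraries held between 15621103 and 17113722 reads assigned to genes, and a count of 3 equals 0.174 to 0.196 CPM. CPM are counts scaled to a fixed library total after TMM, an adjustment of those totals for composition. All 10 markers of this mesenchymal-like line were expressed, with the vimentin gene VIM at 836 ± 25.3 CPM in DMSO (SD, n = 2), while CDH1, the epithelial cadherin gene, had 0 counts in both DMSO libraries. Of 12 luminal breast markers 8 passed the filter. The keratin genes KRT8 (528 ± 4.50 CPM in DMSO, SD, n = 2) and KRT18 (185 CPM), XBP1 (88.1), ERBB2 (85.2), KRT19 (29.7) and GATA3 (13.9) were expressed, while FOXA1, PGR, TFF1 and AGR2 were at or near 0 and ESR1 was at 0.129 CPM. At 150 µg/ml 3 of the 8 were higher (ESR1, KRT19 and XBP1) and 3 lower (KRT8, KRT18 and GATA3). Among all tested genes at that dose 25.8% were higher and 25.7% lower. The call of ESR1 rests on 2 and 2 reads in DMSO against 13 and 9 at 150 µg/ml. The mesenchymal markers summed to 5806 to 5994 CPM in DMSO, 4201 to 4295 at 75 µg/ml and 3478 to 3500 at 150 µg/ml, with 9 of 10 lower and 1 higher at 150 µg/ml, and the part of either list in the KLF values was not tested. Summed markers of leukocytes stayed between 0.72 and 1.39 CPM, and 12 endothelial and fibroblast markers together held 26.6 to 28.6 CPM in DMSO, 28.1 to 31.8 at 75 µg/ml and 23.6 to 26.4 at 150 µg/ml. Of the 5 tested members of that list the vascular receptor gene KDR fell at 150 µg/ml (log2 fold change -0.80, SE 0.143), and PECAM1 (1.00), VWF (0.94), PDGFRB (0.63) and COL1A1 (0.36) did not pass. At 75 µg/ml VWF (1.62) and PDGFRB (0.80) were higher, where 19.2% of all tested genes were. VWF held only 5 and 5 reads in the DMSO libraries and 21 and 12 at 75 µg/ml. PDGFRB held 30 and 48 in DMSO, then 72 and 72. The decorin gene DCN was at 0 throughout. In such bulk RNA, fewer cells of a type and less RNA per cell cannot be told apart. The labels call the 2 libraries of a group biological replicates but do not say whether they came from separate cultures. The p-values speak only of the spread between the libraries at hand.

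At 150 µg/ml against DMSO, 5 of the 10 genes rose, KLF9, KLF7, KLF4, KLF13 and KLF10, and 2 fell, KLF2 and KLF3 (edgeR's quasi-likelihood test, Benjamini-Hochberg adjusted p under 0.05 over all tested genes). Across all tested genes in that comparison 25.8% were higher and 25.7% lower. KLF5, KLF6 and KLF11 did not pass. The median log2 fold change of the 10 was 0.27, beside 0.03 over all tested genes. At 75 µg/ml against DMSO, 4 genes rose, KLF9, KLF7, KLF10 and KLF4, and 3 fell, KLF3, KLF5 and KLF6, where 19.2% of all tested genes were higher and 19.4% lower. Their median was 0.05, beside 0.01 over all tested genes. With total counts in place of TMM, which moved the median of all genes to 0.14 at 75 µg/ml and to 0.22 at 150 µg/ml, the members' calls at 75 µg/ml were 5 higher and 1 lower, and at 150 µg/ml again 5 and 2. Over all tested genes that scaling gave 6031 higher and 2542 lower at 150 µg/ml, against 4022 and 4000 with TMM, 4501 and 1816 at 75 µg/ml, against 2989 and 3026, and 2206 and 1345 between doses, against 1482 and 1951. Between the doses 3 genes were higher at 150 µg/ml, KLF4, KLF5 and KLF6, where 9.51% of all tested genes were higher and 12.5% lower. None of the 10 was lower by edgeR, DESeq2 or limma-voom, and 0 of 10 were lower at an unadjusted p under 0.05 by edgeR. Both comparisons with DMSO use the same 2 control libraries, so their values are not independent of each other.

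**Figure D1:**
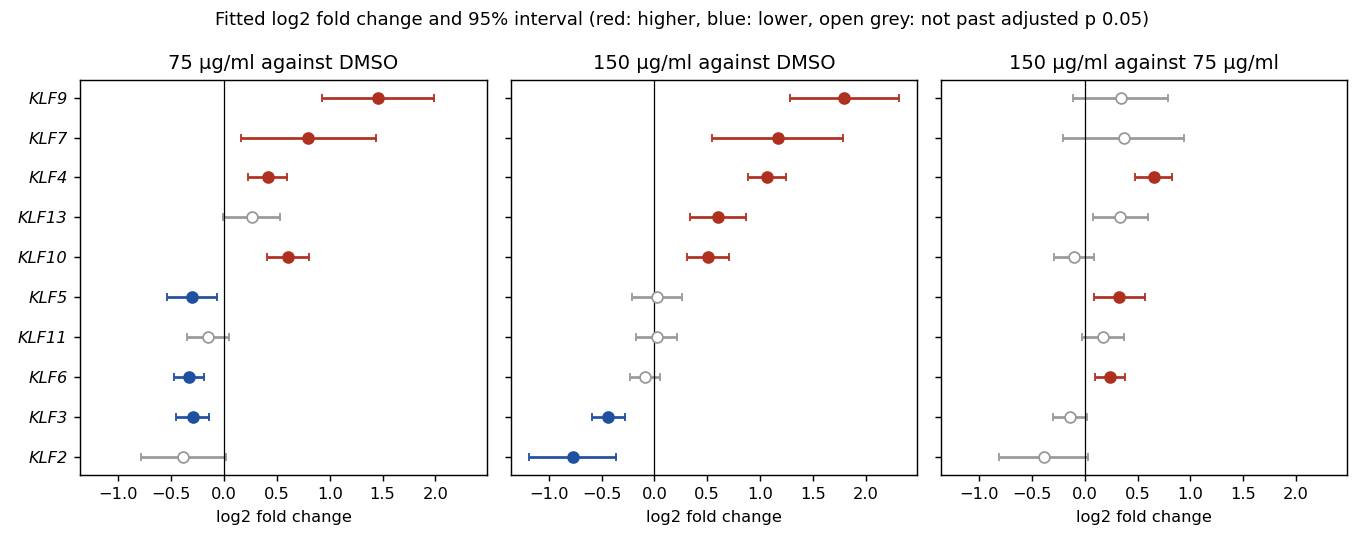
Fitted log2 fold changes of the 10 KLF genes in the 3 comparisons (horizontal axis, log2 scale) with 95% intervals, red where higher, blue where lower and open grey where the adjusted p was 0.05 or more. KLF9 has the largest value at each dose against DMSO, 1.46 and 1.80, and KLF2 the lowest at 150 µg/ml, -0.77.

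The DNA around the start of 3 members is shown because the results turn on them: KLF9 with the largest rise, KLF4 with a rise at each step of dose and KLF2 with the largest fall. Each window runs from 250 bases before to 50 after the RefSeq transcript start (GRCh38.p14, 300 bases, gene strand): chr9:70414608-70414907 on the minus strand for KLF9, chr9:107489720-107490019 on the minus strand for KLF4 and chr19:16324576-16324875 on the plus strand for KLF2. Capitals mark GC boxes (GGGCGG) in KLF4 and KLF2, CCAAT boxes in KLF9, and in KLF2 also a MEF2 site, all searched on both strands.
KLF9: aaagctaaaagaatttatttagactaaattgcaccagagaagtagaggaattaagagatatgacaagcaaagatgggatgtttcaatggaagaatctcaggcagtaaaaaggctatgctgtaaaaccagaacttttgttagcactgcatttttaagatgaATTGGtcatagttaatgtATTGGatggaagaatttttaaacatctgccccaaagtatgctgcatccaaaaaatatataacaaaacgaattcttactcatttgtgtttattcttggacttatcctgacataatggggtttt
KLF4: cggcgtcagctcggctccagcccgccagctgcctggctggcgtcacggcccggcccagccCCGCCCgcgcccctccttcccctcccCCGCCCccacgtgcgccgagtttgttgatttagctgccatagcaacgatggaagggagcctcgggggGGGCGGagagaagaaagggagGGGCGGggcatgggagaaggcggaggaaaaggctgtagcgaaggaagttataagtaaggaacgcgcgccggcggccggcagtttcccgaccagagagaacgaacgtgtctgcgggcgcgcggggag
KLF2: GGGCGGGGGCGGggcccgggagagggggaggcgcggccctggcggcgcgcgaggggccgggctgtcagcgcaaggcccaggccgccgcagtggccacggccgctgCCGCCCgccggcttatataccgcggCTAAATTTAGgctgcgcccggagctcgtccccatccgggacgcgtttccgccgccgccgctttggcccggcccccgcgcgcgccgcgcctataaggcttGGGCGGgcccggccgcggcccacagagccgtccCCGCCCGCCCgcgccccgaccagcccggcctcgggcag

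The 3 windows differ in composition. KLF9's is AT-rich, with 32.7% GC, 0 GC boxes and 2 CCAAT boxes, both read as ATTGG. KLF4's has 69% GC and 4 GC boxes, and KLF2's has 80.7% GC and 6 GC boxes, some of which overlap. The median promoter in the RefSeq table had 58.7% GC. The MEF2 site in KLF2 is the kind of element through which the ERK5 kinase pathway is known to act on this gene, and 2.99% of the 35114 promoter windows of the same length hold one. A GC box is in 45.0% of all windows and a CCAAT box in 34.6%.

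Of the 10 genes, 8 had a RefSeq window, 13 windows in all since KLF5, KLF7 and KLF11 have several starts. GC boxes were in 8 of the 13, CACCC boxes (CACCC) in 7, where 59.9% of all windows hold one, and CCAAT boxes in 6. XRE cores (GCGTG), the letters read by the dioxin receptor, were in 5 of the 13, beside 36.5% of all windows. Of the rarer elements, a CRE (TGACGTCA) was in 1, a C/EBP-ATF element (TGATGNAA) in 1, a CArG box in 1 and a TATA box (TATAAA) in 1, where 1.85%, 3.62%, 1.29% and 11.5% of all windows hold one. An AP-1 site (TGANTCA) was in 0 of the 13, and 7.71% of all windows hold one. Motifs were counted on both strands, overlapping matches included, and a match is only a stretch of letters. Alternative starts of one gene differed too. KLF5's windows had 40.7% and 71.3% GC, and the 4 windows of KLF7 ran from 42.7% to 70%. The counts per gene do not separate these starts.

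Among the Sin3A-binding members, KLF9 had the largest rise of the family. KLF9, first described as a GC-box binding protein and known as a gene induced by glucocorticoids and thyroid hormone, spans bases 70384597 to 70414624 of chromosome 9 (minus strand; GENCODE 29, GRCh38, as for all gene positions here). It stood at 1.58 and 2.49 CPM in the 2 controls, 5.87 and 5.29 at 75 µg/ml, then 7.37 and 6.73 at 150 µg/ml. Every treated library lay above both controls, and both libraries at 150 µg/ml lay above both at 75 µg/ml. These levels rest on few reads, 25 and 38 in DMSO, 96 and 88 at 75 µg/ml, then 122 and 116 at 150 µg/ml. The fitted change was 2.75-fold at 75 µg/ml (log2 fold change 1.46, SE 0.25, adjusted p = 0.00017) and 3.47-fold at 150 µg/ml (1.80, SE 0.244, adjusted p = 8.3e-06). From 75 to 150 µg/ml the log2 difference was 0.34 with a 95% interval from -0.11 to 0.79, which did not pass the test (adjusted p = 0.292).

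KLF10, first found as an early gene of the TGF-beta response, rose at both doses without a further step. It spans bases 102648779 to 102655902 of chromosome 8 (minus strand). Its libraries read 46.6 and 45.6 CPM in DMSO, 76.4 and 64.0 at 75 µg/ml, then 59.6 and 71.3 at 150 µg/ml. All 4 treated libraries were above the controls, and the 2 doses overlapped. Against DMSO it was 1.52-fold at 75 µg/ml (log2 fold change 0.61, SE 0.0941, adjusted p = 6.5e-05) and 1.42-fold at 150 µg/ml (0.51, SE 0.0944, adjusted p = 0.00023). Between the doses the difference was -0.10 (95% interval -0.29 to 0.09).

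KLF13, which is known from T cells as an activator of the chemokine gene CCL5, spans bases 31326855 to 31435665 of chromosome 15 (plus strand). It went from 12.4 and 15.5 CPM in DMSO to 17.1 and 16.4 at 75 µg/ml, then 20.5 and 21.8 at 150 µg/ml. The groups did not overlap. Only the change at 150 µg/ml passed in this fit, 1.51-fold (log2 fold change 0.60, SE 0.125, adjusted p = 0.00063), while at 75 µg/ml the value was 0.26 (SE 0.128, adjusted p = 0.119) and between doses 0.34 (SE 0.122, adjusted p = 0.0568). The smaller steps depended on the setting: at 75 µg/ml it passed with total counts (0.39, adjusted p = 0.022), and without DMSO replicate 2 (0.43, adjusted p = 0.0327), but was 0.11 without DMSO replicate 1 (adjusted p = 0.639). Between doses it passed with total counts (0.40, adjusted p = 0.0252), the filter of 5 CPM (0.0394), limma-voom (0.0489) and the 2 groups fitted alone (0.029), and without DMSO replicate 1 (0.0342) or 2 (0.0356).

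KLF11, the closest relative of KLF10 and likewise a TGF-beta-inducible gene, spans bases 10042849 to 10054836 of chromosome 2 (plus strand). It did not pass in any of the 3 comparisons. Its libraries read 26.7 and 28.0 CPM in DMSO, 24.4 and 24.7 at 75 µg/ml, then 27.2 and 28.2 at 150 µg/ml. Both libraries at 75 µg/ml were the lowest, with a log2 difference from DMSO of -0.15 (95% interval -0.35 to 0.05). At 150 µg/ml the fitted ratio to DMSO was 1.01, with an interval from 0.883 to 1.16. Of its exonic length 9.07% overlaps an antisense transcript that had 0 counts in all libraries, and whether reads in the overlap were assigned depends on a strand setting that is not known here.

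Of the activating members KLF4 rose at every step. KLF4, a regulator of epithelial differentiation and one of the factors used to reprogram cells to pluripotency, spans bases 107484852 to 107490482 of chromosome 9 (minus strand). The DMSO libraries stood at 29.7 and 33.3 CPM, those at 75 µg/ml at 39.2 and 44.6 and those at 150 µg/ml at 65.8 and 65.8. No group overlapped another, and both steps passed. KLF4 rose 1.33-fold at 75 µg/ml (log2 fold change 0.41, SE 0.0886, adjusted p = 0.00129) and 2.09-fold at 150 µg/ml (1.06, SE 0.0856, adjusted p = 1.4e-08). From 75 to 150 µg/ml it rose by a further 1.57-fold (0.65, SE 0.0826, adjusted p = 2.5e-05). It was the one member called at each dose against DMSO and between the doses.

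KLF7, known from neuronal development, was the scarcest member per length. It spans bases 207074137 to 207167267 of chromosome 2 (minus strand). Its levels were 1.77 and 2.55 CPM in DMSO, 3.06 and 4.45 at 75 µg/ml, then 3.99 and 5.69 at 150 µg/ml, from 28 and 39, 50 and 74, and 66 and 98 reads. Treated libraries were above both controls, and the doses overlapped. The fitted rise was 1.74-fold at 75 µg/ml (log2 fold change 0.80, SE 0.301, adjusted p = 0.045) and 2.24-fold at 150 µg/ml (1.17, SE 0.293, adjusted p = 0.00291). The first of these sat at the threshold and was lost with DESeq2 (adjusted p = 0.112), limma-voom (0.0665) and the 2 groups fitted alone (0.0613), without DMSO replicate 1 (0.55, adjusted p = 0.258), AF-EAE 75 replicate 2 (0.50, adjusted p = 0.33) or either library at 150 µg/ml (0.0508 and 0.0545), and the second without AF-EAE 150 replicate 2 (0.88, adjusted p = 0.0605).

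KLF2, known for keeping endothelial cells and T cells quiescent, had the largest fall. It spans bases 16324817 to 16327874 of chromosome 19 (plus strand). It read 13.6 and 9.30 CPM in DMSO, 10.1 and 7.39 at 75 µg/ml, then 6.47 and 6.91 at 150 µg/ml. The DMSO and 75 µg/ml libraries overlapped, and both libraries at 150 µg/ml were below all others. At 150 µg/ml KLF2 was at 0.585 of its DMSO level (log2 fold change -0.77, SE 0.196, adjusted p = 0.00306). At 75 µg/ml the value was -0.38 (95% interval -0.79 to 0.02, adjusted p = 0.124), and it passed without DMSO replicate 2 (-0.63, adjusted p = 0.0158) or AF-EAE 75 replicate 1 (-0.64, adjusted p = 0.0323), but was -0.09 without DMSO replicate 1 (adjusted p = 0.806) and -0.17 without AF-EAE 75 replicate 2 (adjusted p = 0.587). The fall rests in part on the higher control: without DMSO replicate 1 it was -0.48 and no longer passed (adjusted p = 0.0811).

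KLF6 and KLF5 were lower at 75 µg/ml than in both other groups. KLF6, an injury-induced factor often counted as a tumour suppressor, was the most abundant member and spans bases 3775996 to 3785281 of chromosome 10 (minus strand). Its levels were 248 and 299 CPM in DMSO, 213 and 222 at 75 µg/ml, then 264 and 249 at 150 µg/ml. Both libraries at 75 µg/ml were below the other 4, and 150 µg/ml overlapped DMSO. KLF6 fell to 0.795 of DMSO at 75 µg/ml (log2 fold change -0.33, SE 0.0676, adjusted p = 0.00084; -0.19 and still called without DMSO replicate 2). It was higher at 150 than at 75 µg/ml by 0.24 (SE 0.0675, adjusted p = 0.0166), a call that was lost without AF-EAE 75 replicate 1 (adjusted p = 0.0868) or AF-EAE 150 replicate 1 (adjusted p = 0.169). At 150 µg/ml against DMSO the ratio was 0.939 with an interval from 0.851 to 1.04, with a log2 fold change of -0.09 that turned to 0.10 with total counts, and without DMSO replicate 1 it was called lower (-0.22, adjusted p = 0.00387).

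KLF5, which maintains proliferating epithelial cells, spans bases 73054976 to 73077542 of chromosome 13 (plus strand). It read 39.2 and 36.1 CPM in DMSO, 29.03 and 32.1 at 75 µg/ml, then 43.6 and 33.1 at 150 µg/ml. The 75 µg/ml libraries were again the lowest, and the 2 libraries at 150 µg/ml lay on either side of the controls. The fall at 75 µg/ml was at the threshold (log2 fold change -0.30, SE 0.113, adjusted p = 0.044). It did not pass with total counts (-0.18, adjusted p = 0.239), the filter of 5 CPM (-0.28, adjusted p = 0.0543) or DESeq2 (-0.32, adjusted p = 0.0616), or without DMSO replicate 1 (adjusted p = 0.19) or AF-EAE 75 replicate 1 (adjusted p = 0.192). The difference between doses, 0.33 (SE 0.113, adjusted p = 0.046), became 0.12 without AF-EAE 150 replicate 1 (adjusted p = 0.56), 0.52 without AF-EAE 150 replicate 2 (adjusted p = 0.00444) and 0.26 without AF-EAE 75 replicate 1 (adjusted p = 0.229). At 150 µg/ml against DMSO its ratio was 1.02 with an interval from 0.865 to 1.20.

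The CtBP-binding member KLF3, a repressor with roles in blood and fat cells, fell at both doses. It spans bases 38664196 to 38701042 of chromosome 4 (plus strand). The libraries read 58.8 and 57.0 CPM in DMSO, 47.8 and 46.6 at 75 µg/ml, then 44.1 and 41.3 at 150 µg/ml, with no overlap between groups. The log2 fold changes were -0.30 at 75 µg/ml (SE 0.074, adjusted p = 0.00421) and -0.44 at 150 µg/ml (SE 0.0745, adjusted p = 9.1e-05). With total counts the first was -0.17 and did not pass (adjusted p = 0.0809). Its antisense neighbour KLF3-AS1, which shares 266 exonic bases with it, had only 2 to 8 counts in any library.

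**Figure D2:**
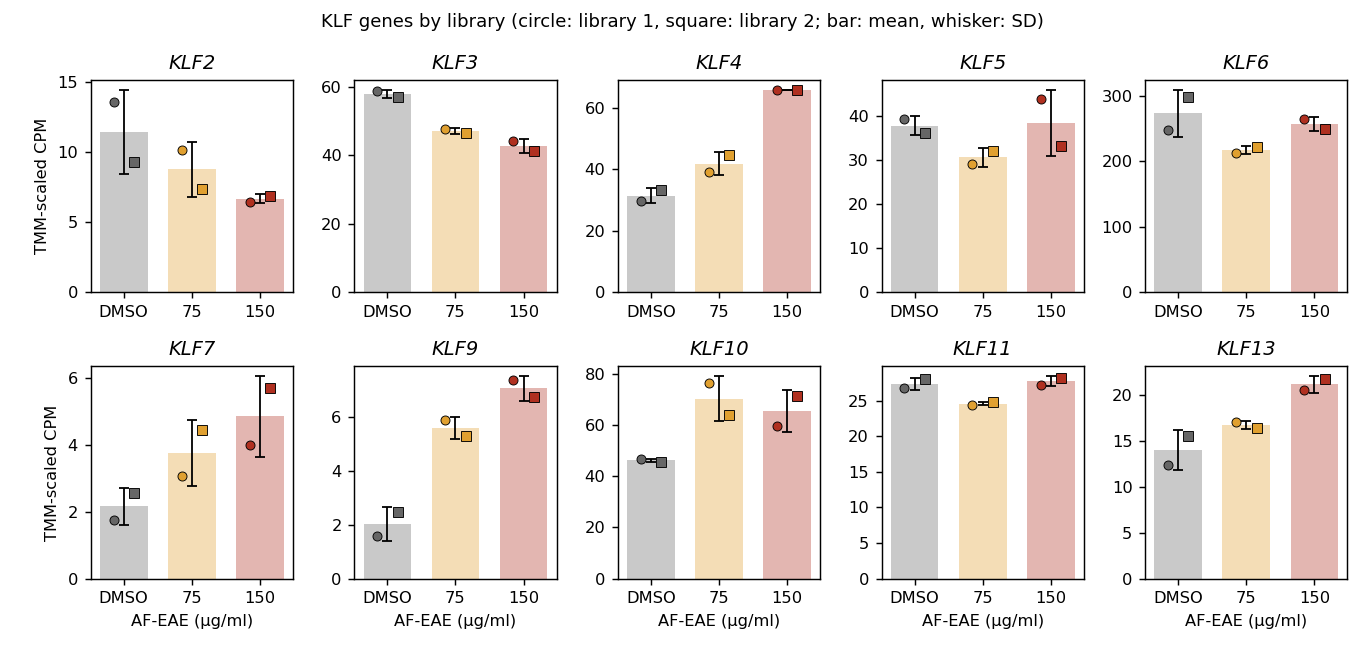
TMM-scaled CPM (vertical axis, from 0, a scale of its own for each gene) of the 10 KLF genes in DMSO and at 75 and 150 µg/ml, with circles for library 1 and squares for library 2 of a group, bars for their mean and whiskers for the SD (n = 2). KLF4 goes from a mean of 31.5 to 65.8 CPM, KLF10 has its highest mean at 75 µg/ml (70.2 CPM), and KLF5 and KLF6 have their lowest there (30.6 and 217 CPM).

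Levels of different genes can be set side by side only per length, here as CPM per kilobase of exonic length. KLF6 came first in every group, at 44.5 ± 5.80 CPM per kb in DMSO, 35.4 ± 1.02 at 75 µg/ml and 41.8 ± 1.77 at 150 µg/ml (SD, n = 2 each). In DMSO the order after KLF6 was KLF10 (11.5 CPM per kb), KLF5 (9.68), KLF3 (9.19) and KLF4 (8.61). KLF5 and KLF3 overlapped in their libraries, as did KLF3 and KLF4. KLF11 (5.96) and KLF2 (5.66) followed and overlapped as well, and KLF13 (1.48), KLF9 (0.393) and KLF7 (0.233) closed the list without overlap.

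The order changed mostly through KLF4. It moved from rank 5 in DMSO to rank 3 at 75 µg/ml (11.5 CPM per kb) and rank 2 at 150 µg/ml (17.98), where KLF10 stood at 16.3. KLF4's share of the summed level per kb of the 10 genes was 8.64% and 9.05% in the DMSO libraries and 16.8% and 17.1% at 150 µg/ml. KLF6's share was 43.0% and 48.3% in DMSO, 37.2% and 39.2% at 75 µg/ml, then 40.1% and 38.5% at 150 µg/ml. The sum itself was 97.3 ± 4.69 CPM per kb in DMSO, 92.7 ± 0.661 at 75 µg/ml and 106 ± 1.48 at 150 µg/ml (SD, n = 2 each). KLF9, despite its large fold change, stayed at rank 9 in all 3 groups.

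**Figure D3:**
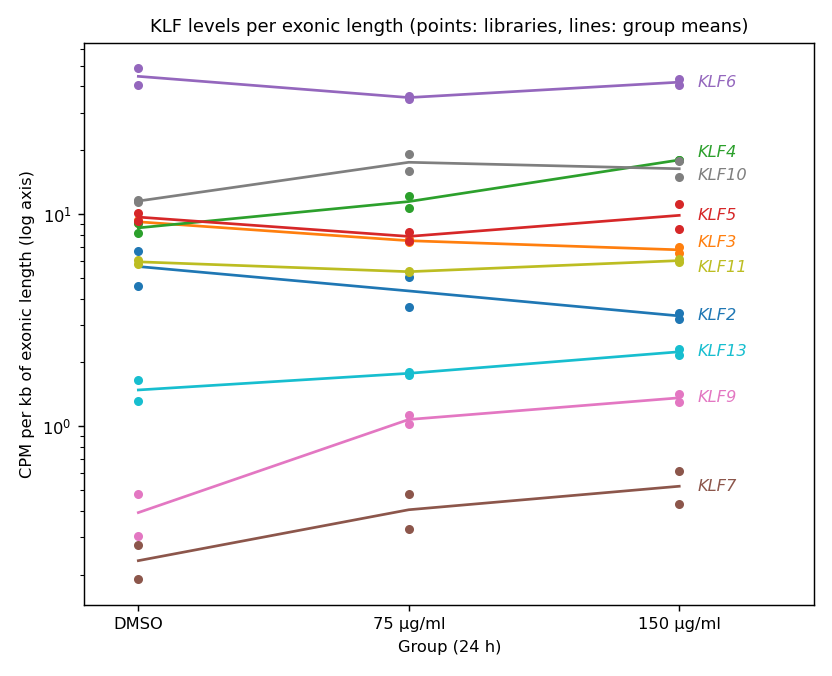
CPM per kb of exonic length (vertical axis, log scale) of the 10 KLF genes across the 3 groups, with points for libraries and lines through group means. KLF6 is the highest throughout, KLF4 climbs from 8.61 to 17.98, and KLF9 rises from 0.393 to 1.36 but stays below KLF13.

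Of the 8 other KLF genes, 3 passed the filter on low counts. KLF16, also a Sin3A-binding member, fell from 37.5 and 35.5 CPM in DMSO to 32.1 and 29.7 at 75 µg/ml, then 30.04 and 27.8 at 150 µg/ml (log2 fold changes -0.24 and -0.34, adjusted p = 0.0453 and 0.00501). Other genes share 16.3% of its exonic bases. With total counts neither passed and 1 of the other KLF genes was higher at 150 µg/ml, and the call at 75 µg/ml was also lost with DESeq2, with either change of filter and without any 1 library of the 2 groups. KLF12, a CtBP-binding repressor, stayed at 27.6 to 31.2 CPM in all libraries and was not called at either dose, and KLF15 (2.40 to 4.17 CPM) was not called either. KLF1, KLF8 and KLF18 had 0 counts in all 6 libraries, which allows a level of up to 0.174 to 0.196 CPM in a library. KLF14 and KLF17 reached at most 0.59 CPM.

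Of 9 SP genes, 6 were tested. SP3 and SP2, relatives of SP1, fell at both doses. SP3 went from 203 and 203 CPM to 174 and 167 at 75 µg/ml, then 174 and 163 at 150 µg/ml (log2 fold changes -0.25 and -0.27). SP2 had log2 fold changes of -0.42 and -0.44. Of all tested genes, 25.7% were lower and 25.8% higher for the higher dose against DMSO. For the lower dose the shares were 19.4% and 19.2%. Whether the 6 SP genes differ from these shares was not tested. With all 6 libraries 0 of the 6 SP genes were higher at an unadjusted p under 0.05 by edgeR. None of them was called higher by edgeR with TMM or by DESeq2. At 150 µg/ml this did not hold in every fit with 1 library left out. With total counts 1 of the 2 kept its call at each dose, and 1 SP gene was higher at 150 µg/ml. SP1 itself, at 149 and 158 CPM in DMSO and 135 and 153 at 150 µg/ml, was not called.

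Genes whose products work with KLF proteins were taken from lists written by hand, to be read against the 25.8% higher and 25.7% lower among all tested genes at 150 µg/ml (median 0.03) and the 19.2% and 19.4% at 75 µg/ml (median 0.01). Of 15 corepressors and coactivators, 1 was higher and 10 lower at 150 µg/ml (median log2 fold change -0.16) and 1 and 7 at 75 µg/ml (-0.14). With total counts these became 3 and 6, and 1 and 3, and the 1 higher at 75 µg/ml was lost with DESeq2 and without DMSO replicate 2 or AF-EAE 75 replicate 2. SIN3B, which encodes a Sin3 scaffold, was the one that rose (0.34 at 150 µg/ml), while the histone deacetylase gene HDAC2 (-0.50) and the acetyltransferase gene KAT2A (-0.63) fell. Of 11 genes for the turnover of KLF proteins, 4 were higher and 2 lower at 150 µg/ml (median 0.17), and 2 and 2 at 75 µg/ml (0.01). Under total counts these were 9 and 1, and 6 and 1, and 1 was lower at 150 µg/ml with DESeq2, with the filter of 5 CPM and without DMSO replicate 1 or either library at 150 µg/ml. At 75 µg/ml 1 was lower without DMSO replicate 1 or AF-EAE 75 replicate 2. FBXO32, an F-box gene whose product is reported to target KLF4, went from 5.93 and 4.52 CPM to 17.8 and 16.6 at 75 µg/ml, then 18.5 and 16.4 at 150 µg/ml. The ubiquitin ligase gene VHL rose too (0.80 at 150 µg/ml), and the ligase genes SMURF2 (-0.76) and FBXO22 (-0.20) fell.

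Among upstream regulators of KLF genes, 17 of 18 listed were tested, and 9 were higher and 3 lower at 150 µg/ml (median log2 fold change 0.29), beside 8 and 0 at 75 µg/ml (0.19). With total counts these were 9 and 0, and 11 and 0. The 0 is edgeR's with TMM: 2 were lower at an unadjusted p under 0.05, 2 with DESeq2 size factors in edgeR and 0 by DESeq2. With DESeq2 or without AF-EAE 75 replicate 2 the 8 became 4, and without DMSO replicate 1 they became 3, with 2 lower. Without DMSO replicate 2, or without either library at 150 µg/ml, 1 was lower at 75 µg/ml, and without AF-EAE 150 replicate 1, 1 was lower at 150 µg/ml. EGR1, an immediate early zinc finger gene, read 1.77 and 3.08 CPM in DMSO, 4.71 and 8.59 at 75 µg/ml, then 74.8 and 29.7 at 150 µg/ml. Its 2 libraries at the higher dose stood far apart, but both were above all others (log2 fold change 4.43 at 150 µg/ml). MEF2D, of the factor family that binds MEF2 sites, rose (0.63 at 150 µg/ml). Its part in the level of KLF2, which fell at that dose, was not tested. SMAD2 (-0.34) and the glucocorticoid receptor gene NR3C1 (-0.20) were lower at 150 µg/ml.

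Since KLF9 is known as a glucocorticoid-induced gene, other genes of that response were listed. Of 7 tested, 4 were higher and 2 lower at 150 µg/ml (median 0.21), and 3 and 3 at 75 µg/ml (-0.12). The 3 higher at 75 µg/ml became 2 without any 1 library, with DESeq2, with DESeq2 size factors, without the filter and with the 2 groups fitted alone. TSC22D3, which encodes the glucocorticoid-induced leucine zipper protein, rose (2.02 at 150 µg/ml, SE 0.148), as did the phosphatase gene DUSP1 (1.43, SE 0.102). FKBP5, a co-chaperone of the receptor (-0.51, SE 0.0574), and the kinase gene SGK1 (-0.95, SE 0.139) fell.

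Reported KLF targets moved in both directions. Of 30 listed, 23 were tested, with 12 higher and 9 lower at 150 µg/ml (median 0.21) and 10 and 8 at 75 µg/ml (0.18). With total counts these were 12 and 6, and 13 and 7. CDKN1A, the p21 gene that KLF4 and KLF6 are reported to activate, rose with a log2 fold change of 2.01 at 150 µg/ml, and THBD, the thrombomodulin gene and a KLF2 and KLF4 target, went from 33.7 and 33.5 CPM to 53.2 and 57.8 at 75 µg/ml, then 90.0 and 93.3 at 150 µg/ml. BIRC5, the survivin gene (-1.49), and the mitotic cyclin gene CCNB1 (-1.19), which KLF4 is reported to repress, fell. These targets respond to many other factors, and the part of any KLF in their levels was not tested.

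**Figure D4:**
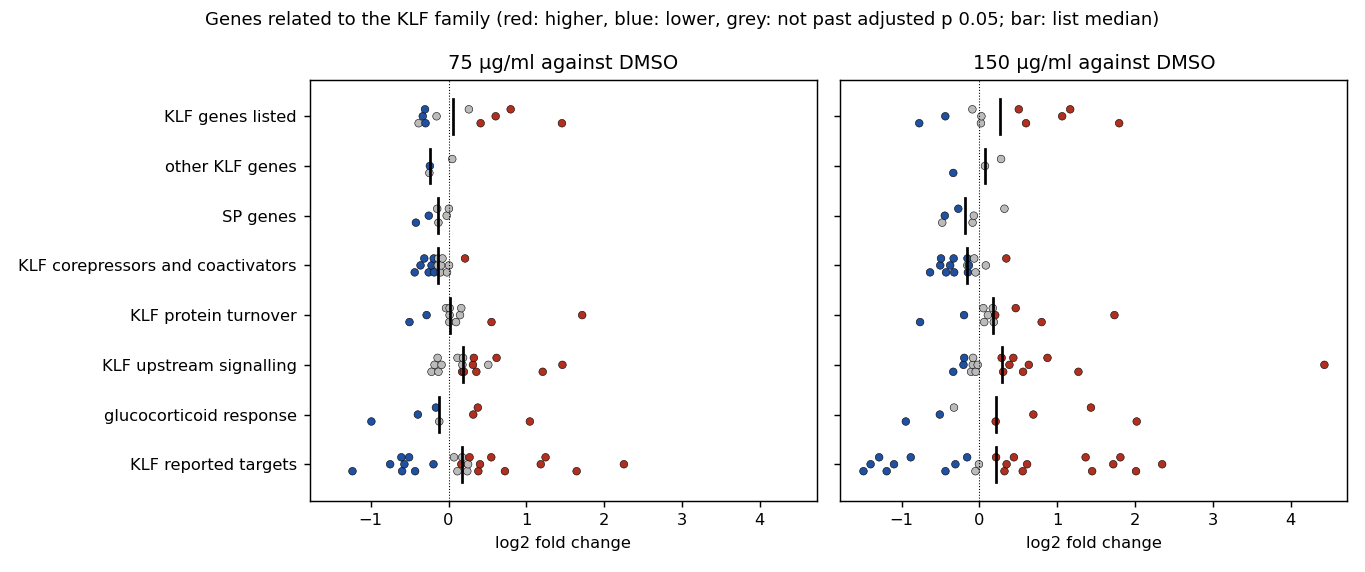
Log2 fold change (horizontal axis) at 75 µg/ml and 150 µg/ml against DMSO for the listed KLF genes and 7 hand-written lists of related genes, with 1 point per tested gene (red higher, blue lower, grey not past an adjusted p of 0.05) and a bar at each list's median. Every list has points on both sides. At 150 µg/ml the medians are 0.27 for the listed KLF genes and 0.21 for the reported targets. They are 0.29 for upstream signalling, 0.21 for glucocorticoid response, 0.17 for protein turnover and 0.07 for other KLF genes. Corepressors and coactivators have a median of -0.16 and SP genes of -0.18.

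The genes whose profile over the 6 libraries was most like that of KLF9 were AKR1C3, C1RL and EPOR, out of 9509 tested genes with a symbol and a mean of 10 CPM or more. The likeness was the root mean square distance between log2 CPM profiles, each centred on its DMSO mean, and came to 0.11, 0.13 and 0.14, where the median gene was at 1.36. AKR1C3, an aldo-keto reductase gene, read 15.003 and 21.2 CPM in DMSO, 46.4 and 45.1 at 75 µg/ml, then 56.3 and 54.3 at 150 µg/ml. For KLF2 the most alike were MEX3D, SMCO4 and TSEN54, at 0.10, 0.11 and 0.12, where the median gene was at 0.51. MEX3D, an RNA-binding protein gene, read 47.8 and 35.3 CPM in DMSO, 32.5 and 25.9 at 75 µg/ml, then 22.1 and 24.1 at 150 µg/ml. In both MEX3D and KLF2, DMSO library 1 stood above DMSO library 2. In KLF9, AKR1C3, C1RL and EPOR, DMSO library 2 stood above DMSO library 1. The choice by distance over all 6 libraries favours such a shared order. Genes picked for the smallest distance lie below the median by construction.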

How the data were processed

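Per the submitters' processing notes, HISAT2 2.2.1 and HTSeq 2.0.2 were used with genome build hg38. The order of steps, the annotation release, strand handling and counting options were not given in the sources used here. Raw counts of reads by gene were deposited by the authors, separately for each library. Rows of the counter's own summary were set aside: reads outside genes were 6.32% to 7.98% of all reads, and reads in overlapping genes 10.95% to 11.48%, so genes that overlap others may be underestimated.

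Counts of all 6 libraries were fitted with edgeR 4.0.16 in R 4.3.3 (TMM, default filter by group, quasi-likelihood F-test, group means, Benjamini-Hochberg adjustment over 15589 genes at 0.05). Each SE comes from the F statistic, and profiles were compared on log2 CPM with a prior count of 2. Common dispersion was 0.00258, with 3 residual and 13.8 prior degrees of freedom. Exonic lengths are unions of GENCODE 29 exons, and promoters come from RefSeq.

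The alternatives were DESeq2 size factors, total counts, no filter, 5 CPM in 2 libraries, DESeq2 1.42.0, limma-voom (limma 3.58.1), only the 2 groups compared, a replicate block, each library left out, a stricter adjusted p (0.01) and log2 fold changes of at least 1 in size. The fits were tested on simulated data with the same spread for every gene and planted log2 fold changes of at least 1 in size. Smaller changes and genes with a wider spread were not tested that way. Genes named are all 10 members, tested KLF and SP relatives, up to 2 genes in each direction with the smallest p at 150 µg/ml per list, and the 3 nearest profiles to the largest rise and fall. VIM and CDH1, the other marker genes and KLF3-AS1 were named after their values were seen. The members and lists were chosen with earlier results of these data known. Counts and floors cover counting error only.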

Additional observations from a re-analysis of the deposited data

How the results depend on the processing

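Of 417 log2 fold changes of the 10 KLF genes under the alternatives, 374 kept direction and side of the threshold, 21 lost their call, 12 gained one and 10 changed sign. Those that changed sign were not called in either fit. KLF11 at 150 µg/ml against DMSO was -0.000392 with DESeq2 size factors and -0.000501 with DESeq2, and KLF6 was 0.10 with total counts. With 1 library left out, the value at 150 µg/ml against DMSO ran from -0.19 to 0.21 for KLF5, from -0.22 to 0.0445 for KLF6 and from -0.0159 to 0.0482 for KLF11, and between the doses KLF10 ran from -0.23 to 0.0387. Asking for log2 fold changes of at least 1 in size left 3 higher and 0 lower at 150 µg/ml. It left 1 higher and 0 lower at 75 µg/ml, and 0 higher between doses. Few genes of any kind passed that cut. Of all 15589 tested genes, 1205 were higher and 622 lower for the higher dose against DMSO. For the lower dose these were 740 and 196, and between doses 130 were higher. With total counts 1 of the 10 KLF genes was lower at 75 µg/ml. At an adjusted p of 0.01, 1 of the 10 was higher between doses, as were 722 of all tested genes. Leaving out 1 library gave 1 to 4 higher between doses (1 without AF-EAE 75 replicate 1 or AF-EAE 150 replicate 1), 4 to 5 higher and 2 lower at 150 µg/ml, and 3 to 5 higher and 2 to 4 lower at 75 µg/ml. A group left with 1 library was assumed to vary like the others. Without DMSO replicate 1, KLF6 (-0.22) took KLF2's place among the 2 lower. The same-numbered libraries' deviations correlated at 0.13, 0.11 and 0.01, which leaves pairing by number undecided. The replicate block gave 5 higher and 2 lower at 150 µg/ml, 4 higher and 3 lower at 75 µg/ml, and between doses 4 higher, KLF13 (0.34, adjusted p = 0.0451) being added. The cause of these changes was not tested. KLF7 was not tested under the filter of 5 CPM. Counts for related lists under these alternatives were added after seeing the data. With 25 to 122 reads per library, KLF7 and KLF9 are the members that depth limits most.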
